A study of Mus musculus with 6 samples.

Results

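The 10 mouse genes of NEDD8 conjugation to cullins were followed in RNA-seq of bone marrow neutrophils from WT mice and from mice in which Lrp5 was to be deleted in myeloid cells. They were taken by symbol from the 52636 genes listed in the deposited expression table, and all 10 were among the 9775 genes that averaged 1 TPM or more (a transcript abundance corrected for gene length and library total) over the 6 libraries. The set was chosen by the TPM of Dcun1d3, which was lower in the LRP5-null libraries, so the values of Dcun1d3 between the groups are a description and carry no test. The question was whether the rest of the machinery moved with it.

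Each group had 3 libraries, all from C57BL/6N mice aged 10 weeks. The LRP5-null group carried LRP5f/f/Lyz2Cre+, that is, floxed Lrp5 alleles and a Cre recombinase driven from Lyz2, the lysozyme gene of neutrophils, monocytes and macrophages. The other group was labelled WT, and whether those mice carried floxed alleles or Cre is not stated in the labels. No label says whether mice were pooled or whether the libraries were prepared together, so p-values measure only the spread between these libraries, which may be technical.

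NEDD8 is a small protein related to ubiquitin. An E1 enzyme made of NAE1 and UBA3 activates it, the E2 enzymes UBE2M and UBE2F carry it, and the 5 DCN1-like proteins (Dcun1d1 to Dcun1d5) act as co-E3s that help its transfer onto a cullin. A cullin bearing NEDD8 is the active core of a cullin-RING ubiquitin ligase, the family that marks many short-lived proteins for degradation, among them regulators of NF-kB, of cytokine signaling and of the cell cycle.

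Some sequences show how these genes differ and were read from GENCODE M1 transcripts. The starts of the DCN1-like reading frames are given first because only Dcun1d3 has a glycine codon, in capitals, right after the start codon. A fatty acid joined to that glycine is known to hold the DCUN1D3 protein at membranes.
Dcun1d1: atgaacaagttgaaatcatcgcagaaggat
Dcun1d2: atgcataaacttaaatcagctcagaaggac
Dcun1d3: atgGGCcagtgtgtcaccaagtgcaagaat
Dcun1d4: atggagtttacccaagagcagcaagcctgt
Dcun1d5: atgccagtgaagaagaagagaaaagctccc
The proteins these frames encode have 259, 259, 304, 306 and 237 residues from Dcun1d1 to Dcun1d5. Dcun1d1 and Dcun1d2 were 79.5% identical over aligned residues and Dcun1d4 and Dcun1d5 were 69.4% identical. Dcun1d3 had no such close partner, at 39.3%, 41.4%, 36.1% and 34.7% identity to Dcun1d1, Dcun1d2, Dcun1d4 and Dcun1d5. It was not the most distant member, since Dcun1d1 and Dcun1d2 were only 32.3% to 34.0% identical to Dcun1d4 and Dcun1d5.

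The end of the Nedd8 reading frame is given because the modifier is made as a precursor. The capitals mark the codons of glycines 75 and 76, the latter being the residue that is joined to the cullin. The 5 residues after it are cut off by proteases such as UCHL3 and SENP8.
Nedd8: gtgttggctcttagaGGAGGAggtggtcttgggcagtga

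The labels were checked before the members were compared. Lrp5 itself was 1.12, 1.31 and 1.42 TPM in WT and 1.68, 1.77 and 2.07 TPM in the LRP5-null libraries, so the Lrp5 transcript was not lower there. TPM covers the whole gene and does not resolve the floxed part, so these values do not show whether it was deleted. Lyz2, the gene that carries Cre in the LRP5-null mice, was 26791, 26300 and 24797 TPM in WT and 14027, 13989 and 13360 TPM in LRP5-null, and every LRP5-null library was below every WT library (difference -0.91, limma adjusted p = 0.00351). Each direction below rests on the labels. Neutrophil markers took 400580 to 449060 TPM per library, and all 13 were above 1 TPM. Of the other cell types, summed levels of T and NK cell markers (11.5 to 13.5 TPM in WT against 15.9 to 17.5 in LRP5-null), of eosinophil, basophil and mast cell markers (10.3 to 12.8 against 13.3 to 14.5) and of megakaryocyte markers (3.74 to 5.38 against 5.75 to 6.65) did not overlap between the groups, while those of erythroid, B cell and monocyte markers did. The summed markers of mature neutrophils did not overlap either, at 41827 to 45700 TPM in WT and 40590 to 41699 TPM in LRP5-null. Those of immature neutrophils overlapped, at 63279 to 68233 TPM in WT and 65128 to 68039 TPM in LRP5-null. Many of the markers of other cells averaged under 1 TPM: 6 of 8 (T and NK), 4 of 7 (eosinophil, basophil and mast cell) and 3 of 5 (megakaryocyte). Of all tested genes, 12.3% were lower and 17.4% higher in LRP5-null without overlap. The part of these marker differences in the results was not tested.

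Depth was 249841492 to 340580330 reads per library, of which 206524690 to 288073020 were uniquely aligned. The share of ribosomal reads was 1.20% and 1.30% in WT replicates 1 and 2, but 3.30% in WT replicate 3 and 2.69% to 2.98% in LRP5-null. The share of intronic reads was 7.78% to 9.0% in WT and 10.6% to 11.2% in LRP5-null. WT replicate 3 thus stood apart from the other WT libraries in its ribosomal share, and values without it are given beside each gene whose call it changed.

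All 10 genes were expressed, over a wide range of levels. Nedd8 was the most abundant, with a mean of 75.4 TPM over the 6 libraries, and its lowest library was above every library of the other members. Next came Ube2m (32.2 TPM), Dcun1d5 (29.9 TPM) and Uba3 (22.2 TPM), each overlapping its neighbour in this order over the 6 libraries. Ube2f (17.6 TPM), Nae1 (14.6 TPM), Dcun1d3 (12.0 TPM) and Dcun1d1 (9.27 TPM) followed, again with overlapping neighbours. Dcun1d2 (2.36 TPM) and Dcun1d4 (1.35 TPM) were lowest, and their ranges overlapped neither each other nor those of the rest. Dcun1d5 was therefore the main DCN1-like transcript of these cells, and Dcun1d3 lay near the middle of all tested genes, at percentile 50.3.

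**Figure D1:**
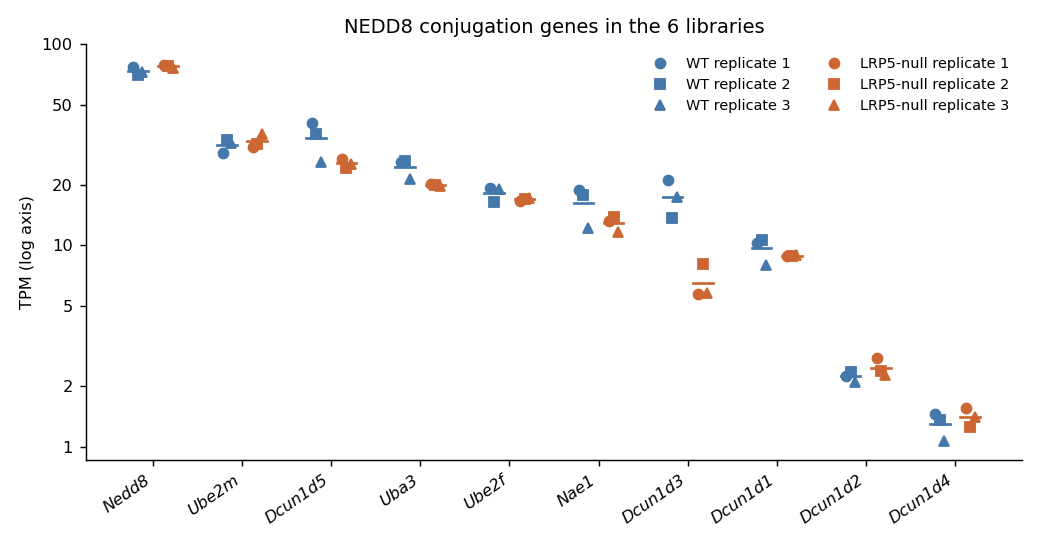
TPM of the 10 NEDD8 conjugation genes on a log axis, with 1 point per library, blue for WT and orange for LRP5-null, and a line at each group's mean. Dcun1d3 spans 13.6 to 21.03 TPM in WT and 5.73 to 8.10 TPM in LRP5-null, and Uba3 is the only other gene whose groups do not overlap.

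Dcun1d3, the gene that chose the set, occupies bases 126996677 to 127039805 of chromosome 7 in NCBIM37, minus strand. It was 21.03, 13.6 and 17.4 TPM in WT replicates 1 to 3 and 5.73, 8.10 and 5.80 TPM in LRP5-null replicates 1 to 3. The highest LRP5-null library was below the lowest WT library. The means were 17.4 ± 3.696 TPM (SD, n = 3) and 6.54 ± 1.35 TPM (SD, n = 3), a ratio of 2.65, and the difference on the log2(TPM + 1) scale was -1.28 (standard error 0.176). Because RNA was measured in bulk, fewer cells that express the gene and less RNA per cell cannot be told apart. The difference was -1.30 against WT replicate 3 alone and -1.29 when the ribosomal share entered the model as a covariate. It was -1.23 after the trends of each library with GC content and transcript length had been removed. With each library left out in turn it lay between -1.43 and -1.14.

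Limma, a linear model fitted to log2(TPM + 1) over all 9775 genes with Benjamini-Hochberg adjustment, called 0.532% of them at an adjusted p under 0.05. Of the other 9 members, 0 were called. At an unadjusted p under 0.05 there were 2, Uba3 and Dcun1d5, both lower in LRP5-null, where 23.5% of all genes passed. The LRP5-null mean was lower for 5 and higher for 4 of the 9 on this scale, and their median difference was -0.10, against 0.04 for all genes tested. One member, Uba3, had groups that did not overlap and was lower in LRP5-null, as were 12.3% of all genes. None was higher without overlap, as were 17.4% of all genes.

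**Figure D2:**
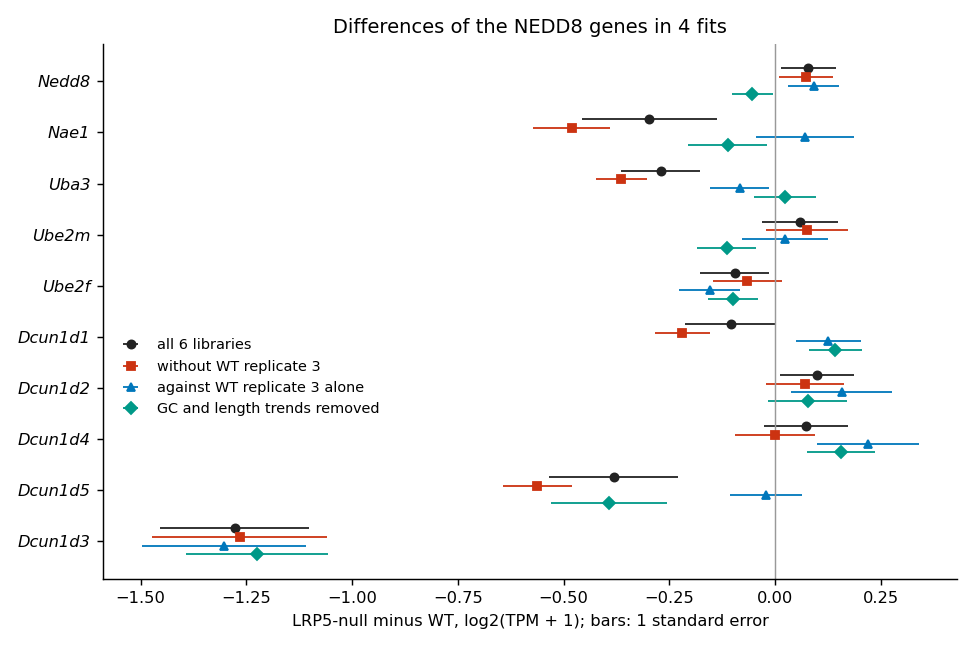
Difference of LRP5-null minus WT on the log2(TPM + 1) scale for each gene in 4 fits, with bars of 1 standard error: all 6 libraries, without WT replicate 3, against WT replicate 3 alone, and with GC and length trends removed. Dcun1d3, by whose lower LRP5-null values the set was chosen, lies between -1.30 and -1.23 in the 4 fits. Dcun1d5, Nae1, Uba3 and Dcun1d1 change size or sign between the fits, and Nedd8, Ube2m and Dcun1d4 also change sign.

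Nedd8, the modifier itself, lies on chromosome 14 from 56281102 to 56290743. It was 76.8, 70.6 and 72.7 TPM in WT and 78.7, 77.5 and 76.2 TPM in LRP5-null. The groups overlapped, and the difference of 0.08 (standard error 0.065) was not called (limma adjusted p = 0.486). This was the steadiest of the 10 genes, with a ratio of 1.12 between its highest and lowest library. Once GC and length trends were removed, the difference was -0.05.

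Both E1 subunits had lower means in LRP5-null. Nae1, the regulatory subunit (chromosome 8, 107034928 to 107058537), was 18.9, 17.8 and 12.2 TPM in WT and 13.2, 13.9 and 11.6 TPM in LRP5-null. WT replicate 3 fell among the LRP5-null libraries, and the difference of -0.30 (standard error 0.159) was not called (limma adjusted p = 0.299). Uba3, the catalytic subunit (chromosome 6, 97133664 to 97155636), was 25.9, 26.2 and 21.3 TPM in WT and 20.3, 20.04 and 19.7 TPM in LRP5-null. Its groups did not overlap, but WT replicate 3 was closer to the LRP5-null libraries than to the other WT libraries, and the difference of -0.27 (standard error 0.093) was not called (limma adjusted p = 0.159). The proportion of the subunits differed by less than the spread of the libraries. Nae1 was 39.7 ± 2.96% (SD, n = 3) of the E1 transcripts in WT and 39.1 ± 1.95% (SD, n = 3) in LRP5-null (exact permutation test, two-sided, p = 0.8, where 0.1 is the smallest p that 3 against 3 libraries allow). Nedd8 over summed E1 transcripts was 1.71, 1.60 and 2.17 in WT and 2.35, 2.29 and 2.43 in LRP5-null.

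The E2 enzymes had small differences. Ube2m, which serves most cullins together with RBX1 (chromosome 7, 13620587 to 13623622), was 28.8, 33.5 and 32.3 TPM in WT and 30.9, 31.9 and 35.8 TPM in LRP5-null. Ube2f, which serves CUL5 together with RNF7 (chromosome 1, 93146888 to 93185454), was 19.2, 16.5 and 19.0 TPM in WT and 16.7, 17.1 and 17.1 TPM in LRP5-null. Both overlapped between the groups, with differences of 0.06 (standard error 0.090, limma adjusted p = 0.723) and -0.10 (standard error 0.081, limma adjusted p = 0.504). The Ube2m share of E2 transcripts was 63.3 ± 3.56% (SD, n = 3) in WT and 65.9 ± 1.51% (SD, n = 3) in LRP5-null (exact permutation test, two-sided, p = 0.3).

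Among the DCN1-like genes other than Dcun1d3, Dcun1d5 had the largest difference. DCUN1D5 is a nuclear member of the family, and its gene lies on chromosome 9 from 7184566 to 7207031. It was 40.6, 35.9 and 25.9 TPM in WT and 27.0, 24.3 and 25.5 TPM in LRP5-null. WT replicate 3 lay within the LRP5-null range and WT replicates 1 and 2 above it, so that the WT mean of 34.2 ± 7.49 TPM (SD, n = 3) had a far wider spread than the LRP5-null mean of 25.6 ± 1.35 TPM (SD, n = 3). The difference of -0.38 (standard error 0.153) was not called (limma adjusted p = 0.194).

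Dcun1d1, a member with a ubiquitin-binding domain (chromosome 3, 35791900 to 35836367), was 10.3, 10.6 and 8.04 TPM in WT and 8.83, 8.85 and 8.93 TPM in LRP5-null. Its WT libraries lay on both sides of the LRP5-null libraries, and the difference was -0.10 (limma adjusted p = 0.581). Its closest paralogue Dcun1d2 (chromosome 8, 13255963 to 13288126) was 2.25, 2.37 and 2.11 TPM in WT and 2.76, 2.39 and 2.28 TPM in LRP5-null, with overlapping groups (difference 0.10, limma adjusted p = 0.514). Dcun1d4, the paralogue of Dcun1d5 (chromosome 5, 73872241 to 73952033), was 1.46, 1.35 and 1.07 TPM in WT and 1.56, 1.25 and 1.41 TPM in LRP5-null, also overlapping (difference 0.07, limma adjusted p = 0.682). At these low levels log2(TPM + 1) understates a change.

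The pool of DCN1-like transcripts was then added up. Without Dcun1d3, the 4 other genes summed to 54.7, 50.3 and 37.2 TPM in WT and 40.1, 36.8 and 38.1 TPM in LRP5-null. WT replicate 3 lay within the LRP5-null range, and the log2 difference of -0.29 was within the spread of the libraries (exact permutation test, two-sided, p = 0.3). No other family member was called higher in LRP5-null. With Dcun1d3 added, the family summed to 64.7 ± 10.6 TPM (SD, n = 3) in WT and 44.9 ± 0.977 TPM (SD, n = 3) in LRP5-null. Dcun1d3 made up 27.8%, 21.3% and 31.9% of the family in WT and 12.5%, 18.1% and 13.2% in LRP5-null.

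**Figure D3:**
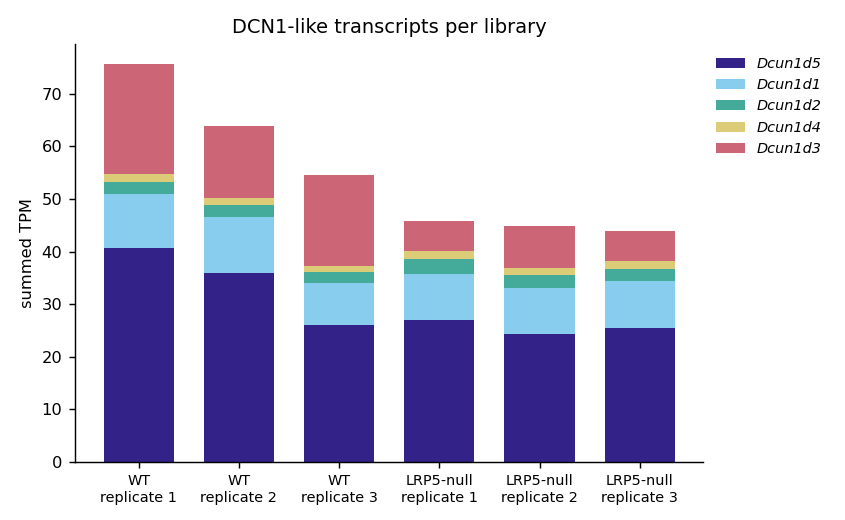
Summed TPM of the 5 DCN1-like genes in each library, as stacked bars from 0. Dcun1d5 is the largest piece in every library, the Dcun1d3 piece is 13.6 to 21.03 TPM in WT and 5.73 to 8.10 TPM in LRP5-null, and the other 4 genes of WT replicate 3, at 37.2 TPM, are at the LRP5-null level.

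How the members other than Dcun1d3 compared depended on WT replicate 3. Without that library 19.6% of all genes were called and 3 of the 9 members were, all lower in LRP5-null. Dcun1d5 was then at -0.56 (limma adjusted p = 0.0136), Nae1 at -0.48 (limma adjusted p = 0.0211) and Uba3 at -0.36 (limma adjusted p = 0.0174). Against WT replicate 3 alone, the only WT library whose ribosomal share was like that of the LRP5-null libraries, the same genes were at -0.02, 0.07 and -0.08. With the ribosomal share as a covariate they were at -0.13, -0.04 and -0.14. Dcun1d1 went from -0.22 without that library to 0.13 against it alone.

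Transcripts of these genes also differed in base composition. The GC content was 37.5% for Uba3, 38.7% for Dcun1d1 and 40.4% for Nae1, against a median of 49.98% over the tested genes, 43.7% for Dcun1d3, 47.4% for Dcun1d5 and 63.4% for Ube2m. With the trends of each library with GC content and length removed, 4.9% of the genes with a known length were called, and 0 of the 9 other members. Uba3 was then at 0.02, Dcun1d1 at 0.14 and Nae1 at -0.11. Dcun1d5 was at -0.39 (limma adjusted p = 0.139).

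**Figure D4:**
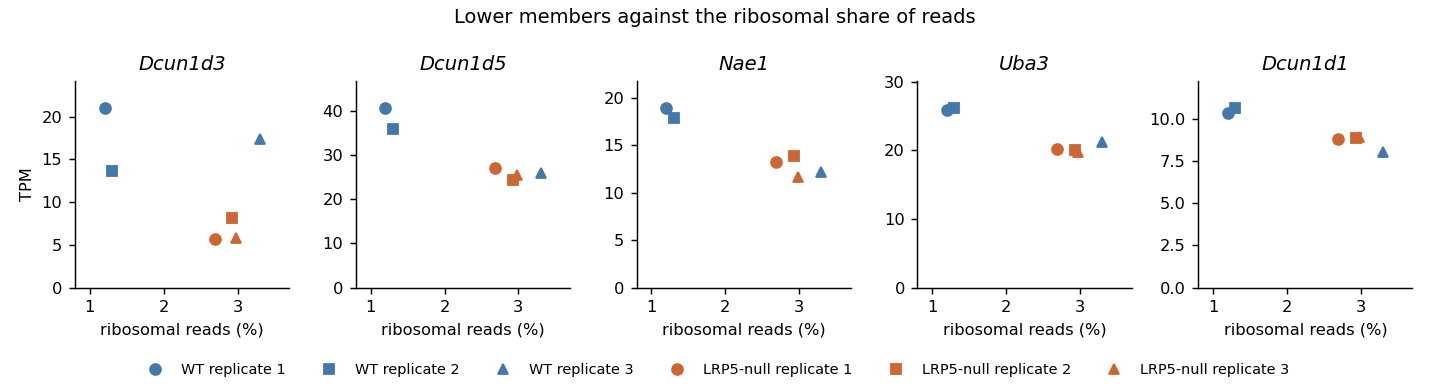
TPM of Dcun1d3 and of the 4 members Dcun1d5, Nae1, Uba3 and Dcun1d1 against the percentage of ribosomal reads, with 1 point per library, blue for WT and orange for LRP5-null. WT replicate 3, at 3.30% ribosomal reads, lies within the LRP5-null range for Dcun1d5 and Nae1. It lies above that range for Uba3, below it for Dcun1d1, and above it, at 17.4 TPM, for Dcun1d3.

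Dcun1d3 shares its start region with another gene. Lyrm1, which encodes a small LYR-motif protein, lies on chromosome 7 from 127039375 to 127060270 on the plus strand of NCBIM37 and overlaps Dcun1d3 head to head by 431 bases. It was 9.17, 8.07 and 4.71 TPM in WT and 6.74, 6.89 and 6.30 TPM in LRP5-null. The WT libraries lay on both sides of the LRP5-null libraries, and the difference of -0.08 (standard error 0.200) was not called (limma adjusted p = 0.835). Between 99.37% and 99.51% of the reads of each library were in the correct strand. Whether the quantification used strand is not stated, so how TPM divided reads from the overlap between these genes is unknown. The next gene on the other side, Rexo5, was 1.41, 1.81 and 1.998 TPM in WT and 2.05, 2.06 and 2.08 TPM in LRP5-null (difference 0.17, limma adjusted p = 0.342), and Dnah3, beyond Lyrm1, was listed at 0 in every library.

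In the RefSeq promoter windows of GRCm38.p6, a start site of Dcun1d3 and one of Lyrm1 lie 116 bases apart on opposite strands. The stretch between them is shown because both genes start from it. It is chr7:119895746-119895860, read on the minus strand toward Dcun1d3, with a cAMP response element motif (TGACGTCA) and a GC box (CCGCCC) in capitals.
Lyrm1 to Dcun1d3: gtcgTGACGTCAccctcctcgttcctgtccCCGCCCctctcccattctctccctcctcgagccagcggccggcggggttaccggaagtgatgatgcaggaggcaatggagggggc
Both strands of the 250 bases before each start were searched for these motifs and for CCAAT and TATAAA. TGACGTCA was present in 1.55% of 32851 such windows, GGGCGG or CCGCCC in 32.7%, CCAAT in 33.8% and TATAAA in 12.4%. Dcun1d3 was the only member with TGACGTCA in a window, and its other window had none. Each of these windows held 19 CpG dinucleotides against a median of 6. Windows of the other members held from 4 (Dcun1d5) to 37 (Ube2m). A match of letters is a description and does not show that a factor bound there.

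The genes whose profiles over the 6 libraries were nearest to that of Dcun1d3 were then sought, with the mean absolute difference of centred log2(TPM + 1) values as the distance. The 5 nearest were Igkv16-104 (0.125), Igkv8-27 (0.166), Nkiras2 (0.186), Nfe2 (0.219) and Lyz2 (0.258). The first 2 are variable segments of the immunoglobulin kappa light chain with means of a few TPM, Nkiras2 encodes an inhibitor of NF-kB, Nfe2 a transcription factor of megakaryocytes and red cell precursors, and Lyz2 lysozyme, whose values are given above with the check of the labels. Among genes averaging 5 TPM or more, Nkiras2, Nfe2 and Lyz2 were again among the 5 nearest. Of the other NEDD8 genes the nearest was Dcun1d5, at rank 259 of 9774 genes with a distance of 0.448, followed by Nae1 at rank 513 and Uba3 at rank 638. The remaining members ranked from 2238 (Dcun1d1) to 6053 (Dcun1d2). The distance uses the Dcun1d3 values by which the set was chosen, so genes that are lower in LRP5-null come near it. Dcun1d5, Nae1 and Uba3 were also the other members with the lowest differences, and their ranks are no separate evidence of likeness.

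The substrates and partners of the pathway were described from lists of cullins, their partners and their substrate receptors. Of 180 listed genes, 145 averaged 1 TPM or more and 0 were called by limma. At an unadjusted p under 0.05 there were 15 higher and 19 lower, together a share close to the 23.5% of all genes that passed. Groups did not overlap for 18 that were higher and 25 that were lower, beside the 17.4% and 12.3% of all genes. Without WT replicate 3, 32 were called, 16 in each direction, where 19.6% of all genes were, and with GC and length trends removed 6 were, where 4.9% of all genes were. The shares of listed genes called in these fits were near those of all genes. Without overlap, more listed genes were lower than higher, whereas over all genes more were higher than lower. The cause of this was not tested.

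The cullins, the proteins that receive NEDD8, had a median difference of -0.24 over the 6 tested genes, 5 of them below 0. Cul4b, the scaffold of a ligase that works on chromatin, was 21.7, 18.6 and 14.0 TPM in WT and 11.8, 11.2 and 11.7 TPM in LRP5-null. Every LRP5-null library was below every WT library, and the difference of -0.58 (standard error 0.144) was not called (limma adjusted p = 0.103), but it was without WT replicate 3 (-0.75, limma adjusted p = 0.0103) and with GC and length trends removed (-0.39, limma adjusted p = 0.0423). Cul2, the scaffold of the von Hippel-Lindau ligase, was 5.68, 5.31 and 4.54 TPM in WT and 4.37, 3.53 and 3.63 TPM in LRP5-null, without overlap (difference -0.35, limma adjusted p = 0.137, and -0.43 without WT replicate 3, limma adjusted p = 0.0339). The median over the cullins was -0.31 without WT replicate 3, -0.09 against it alone and -0.11 with GC and length trends removed.

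The remaining cullins overlapped between the groups. Cul3, the scaffold for BTB receptors, was the most abundant, at 53.0 ± 9.69 TPM (SD, n = 3) in WT and 43.3 ± 3.45 TPM (SD, n = 3) in LRP5-null (difference -0.27, limma adjusted p = 0.271). Without WT replicate 3 it was called, at -0.41 (limma adjusted p = 0.0335), and against that library alone it was at 0.01. Cul1, the scaffold for F-box receptors, had a difference of 0.17 (limma adjusted p = 0.344), Cul4a one of -0.21 (limma adjusted p = 0.519) and Cul5, which pairs with Ube2f, one of -0.08 (limma adjusted p = 0.713). Cul7 and Cul9 were under 1 TPM on average and were not tested.

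**Figure D5:**
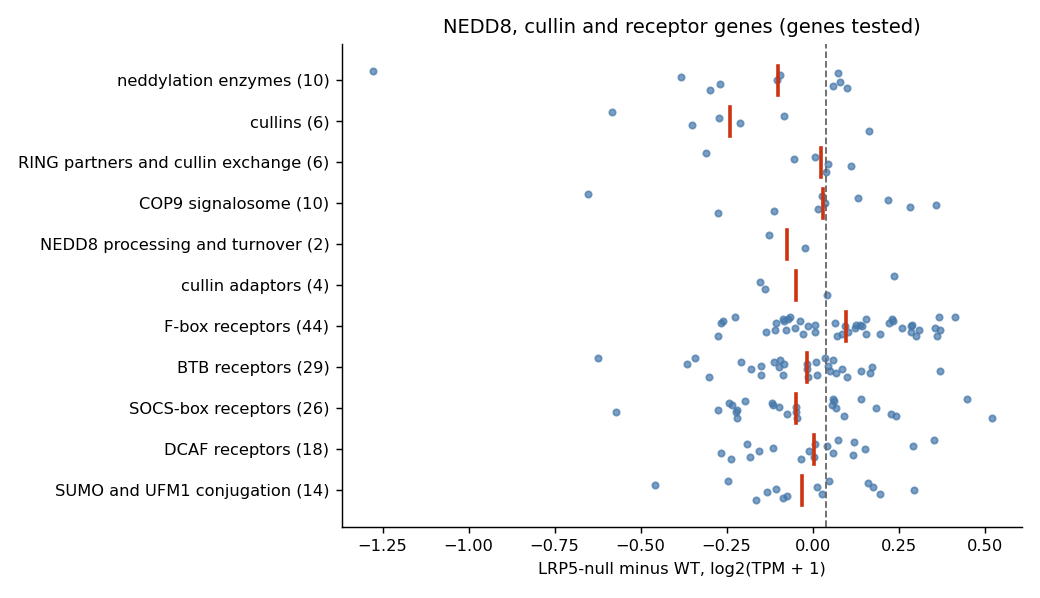
Difference of LRP5-null minus WT on the log2(TPM + 1) scale for the tested genes of each list, with 1 point per gene, a red bar at the list's median and a dashed line at 0.04, the median of all genes tested. The cullins have the lowest median, -0.24. Dcun1d3, by whose lower LRP5-null values the set was chosen, is at -1.28, far below all other genes shown.

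The COP9 signalosome, which takes NEDD8 off cullins, had a median difference of 0.03 over its 10 genes, all tested. At an unadjusted p under 0.05 there were 3 higher and 2 lower, where 23.5% of all genes passed. Cops2 was 31.6, 27.8 and 19.3 TPM in WT and 17.5, 13.1 and 17.7 TPM in LRP5-null, so that the groups did not overlap but WT replicate 3 lay close to the LRP5-null libraries (difference -0.65, limma adjusted p = 0.129). Gps1, another subunit, was 9.57, 10.7 and 11.1 TPM in WT and 13.7, 12.4 and 12.8 TPM in LRP5-null (difference 0.28, limma adjusted p = 0.133). Without WT replicate 3 both were called, Cops2 at -0.85 (limma adjusted p = 0.0174) and Gps1 at 0.32 (limma adjusted p = 0.0411). The catalytic subunit Cops5 had a difference of 0.03 (limma adjusted p = 0.859).

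RING partners and exchange factors of the cullins had a median of 0.02 over 6 genes. The smallest p-values were those of Arih1, a ligase that works together with NEDD8-bearing cullins (difference -0.31, limma adjusted p = 0.154), and of Rbx1, the RING partner of most cullins (0.11, limma adjusted p = 0.321). Arih1 was called without WT replicate 3, at -0.41 (limma adjusted p = 0.0198). Of the NEDD8 proteases and turnover factors, Uchl3 (-0.13, limma adjusted p = 0.557) and Nub1 (-0.02, limma adjusted p = 0.864) were tested, and Senp8 was under 1 TPM on average. The adaptors that join receptors to cullins had a median of -0.05 over 4 genes. Among them, Elob was 158, 160 and 179 TPM in WT and 192, 197 and 197 TPM in LRP5-null, without overlap (difference 0.24, limma adjusted p = 0.133), and Skp1a had a difference of -0.14 (limma adjusted p = 0.575). Elob was called without WT replicate 3, at 0.29 (limma adjusted p = 0.0198).

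Receptors, which choose the substrate, went in both directions. F-box receptors had a median of 0.10 over 44 genes, BTB receptors one of -0.02 over 29, SOCS-box receptors one of -0.05 over 26 and DCAF receptors one of 0.0049 over 18. Of the F-box list, Fbxo34 was 12.8, 12.6 and 14.3 TPM in WT and 17.3, 17.2 and 17.5 TPM in LRP5-null (difference 0.37, limma adjusted p = 0.0781), and Fbxl15 had a difference of 0.37 (limma adjusted p = 0.149). Without WT replicate 3 both were called, Fbxo34 at 0.42 (limma adjusted p = 0.0139) and Fbxl15 at 0.45 (limma adjusted p = 0.0455). Of these, Fbxo34 was also called with GC and length trends removed (0.31, limma adjusted p = 0.0291).

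Kbtbd7, a receptor that pairs with CUL3, had the lowest difference of the BTB list. It was 55.6, 48.5 and 41.2 TPM in WT and 29.6, 31.3 and 31.7 TPM in LRP5-null. No LRP5-null library reached the WT range, and the difference of -0.62 (standard error 0.110, limma adjusted p = 0.0648) came under the threshold with GC and length trends removed (-0.53, limma adjusted p = 0.0259) and without WT replicate 3 (-0.73, limma adjusted p = 0.0103). Klhl20, another CUL3 receptor, had a difference of 0.37 (limma adjusted p = 0.138). Of the SOCS-box list, Socs3, which restrains cytokine signaling through STAT3, was 25.7, 27.5 and 32.1 TPM in WT and 39.4, 36.4 and 41.2 TPM in LRP5-null, without overlap (difference 0.45, limma adjusted p = 0.0892). With GC and length trends removed it was 0.32 (limma adjusted p = 0.0299), and without WT replicate 3 it was 0.54 (limma adjusted p = 0.0129). Pcmtd2 of the same list had a difference of -0.57 (limma adjusted p = 0.104) and was called without WT replicate 3, at -0.66 (limma adjusted p = 0.0312). Asb7, named after its values were seen, was called with those trends removed (-0.22, limma adjusted p = 0.0377) and without WT replicate 3 (-0.24, limma adjusted p = 0.0404).

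Of the DCAF list, Ddb2, the receptor for ultraviolet damage in DNA, was 3.27, 2.82 and 3.09 TPM in WT and 4.30, 4.14 and 4.11 TPM in LRP5-null (difference 0.35, limma adjusted p = 0.0896). It was 0.37 with GC and length trends removed (limma adjusted p = 0.0319) and 0.36 without WT replicate 3 (limma adjusted p = 0.0340). Rfwd2, which encodes COP1, had a difference of -0.27 (limma adjusted p = 0.129), and of -0.33 without WT replicate 3 (limma adjusted p = 0.0192). For comparison, the related SUMO and UFM1 conjugation genes had a median of -0.03 over 14 genes, with 0 called. At an unadjusted p under 0.05 there were 2 higher and 1 lower of the 14, where 23.5% of all genes passed. The smallest p-values were those of Ufl1 (-0.25, limma adjusted p = 0.153) and Ufc1 (0.19, limma adjusted p = 0.168).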

How the data were processed

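The 6 libraries, 3 of each label, hold RNA of mouse bone marrow neutrophils. The authors name alignment to mm9 and the DESeq2 pipeline for quantification and deposited TPM, without naming the tool that gave it. The labels give a Percoll gradient and an mRNA kit, whereas the methods give sorting and a kit for stranded total RNA. The read summary deposited by the authors holds read counts, shares in percent and a ratio of coverage bias at each transcript end (not used here).

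Genes averaging 1 TPM or more were tested with limma 3.58.1 (R 4.3.3) on log2(TPM + 1), with the variance as a trend of the mean and p-values adjusted over all genes by the Benjamini-Hochberg method. TPM holds no counts, so no count model was used and the counting error of a value is unknown. Sums and shares were compared by exact permutation tests (scipy 1.17.1). GC content and length came from GENCODE M1 (NCBIM37) and covered 89.7% of the tested genes. Promoters came from RefSeq.

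The members and lists were chosen with earlier results of these data known. Genes named were the members, the cullins, the 2 smallest p-values of each other list, the 5 nearest to Dcun1d3, its neighbours, Lrp5 and Lyz2. Senp8 and Cops5 were added for their roles. Alternatives were a pseudocount of 0.1, other filters (none, except for rows at 0 in every library, or 5 TPM on average), 3 scalings (median ratio, quantile, and without the 20 most abundant and the mitochondrially encoded genes), limma without trend or robust, omission of each library, a block for the replicate number, the ribosomal share as a covariate, WT replicate 3 alone, and removal of GC and length trends by splines.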

Additional observations from a re-analysis of the deposited data

How the results depend on the processing

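The difference of Dcun1d3 kept its direction in all 19 alternatives, from -1.43 to -1.14 when a library was left out. Dcun1d3 was chosen for its lower LRP5-null values and its groups did not overlap. Its direction was thus largely fixed in advance and is only described. The number of genes called, 52, stayed between 36 and 77 with a pseudocount of 0.1 (53), median-ratio scaling (77), quantile normalization (47), limma without trend (36) and robust shrinkage (61). It became 3 without a filter (with rows at 0 in every library left out, which was chosen after seeing that the fit with them gave a degenerate variance estimate), 29 at a mean of at least 5 TPM, 96 when TPM was rescaled without the most abundant genes, 6 with the ribosomal share as a covariate, 6 against WT replicate 3 alone, 430 with GC and length trends removed and 2 to 1920 with a library left out, 1920 being the fit without WT replicate 3. With the replicate block it was 4, and 6 when GC and length trends were removed with the block. Deviations of same-numbered libraries correlated at 0.229, -0.0075 and 0.131, and those of differently numbered libraries at -0.213 to 0.0834. With 3 libraries per group these values cannot show whether the numbers pair the libraries. The count among the other 9 members was 0 to 3 with a library left out, and 0 in the other alternatives. In the cullin and ligase lists it was 1 (Fbxo34, rescaled TPM), 6 (GC and length trends removed) and 0 to 32 (a library left out). Of the 5 genes nearest to Dcun1d3, 2 (Nkiras2 and Nfe2) were shared at a pseudocount of 0.1 and 3 at a mean of at least 5 TPM. With a library left out, the difference in the Nae1 share ran from -2.21 to 0.67 percentage points, that in the Ube2m share from 0.908 to 4.45, the difference of Ube2m from -0.00345 to 0.103 and the log2 difference of the DCN1-like total without Dcun1d3 from -0.45 to -0.17. The sign turned in some alternatives for members with small differences, but also for Uba3 and Nae1, which were at -0.27 and -0.30 in the main fit of all 6 libraries. With GC and length trends removed, with or without the block, Nedd8 was -0.0539, Uba3 0.0235, Ube2m -0.114 and Dcun1d1 0.143. Dcun1d1 was 0.0488 with the ribosomal covariate and 0.126 against WT replicate 3 alone, and Nae1 was 0.0712 against WT replicate 3. Dcun1d4 was -0.0188 after quantile normalization and -0.00023 without WT replicate 3, and Ube2m -0.0035 without WT replicate 1 and -0.0032 without LRP5-null replicate 3. The cause of these changes was not tested. Depth behind single values is unknown, since TPM keeps no counts.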
